A study of Schmidtea mediterranea with 58 samples.

Results

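The comparison described here is that of *equinox* RNAi with control at 48 h post amputation (hpa) in the planarian *Schmidtea mediterranea*, a flatworm that regrows missing body parts. It holds 9 of the 58 RNA-sequencing libraries of the series, 5 from animals fed double-stranded RNA (dsRNA) of *equinox* and 4 from control animals, and the libraries were chosen by treatment and time alone. All animals belonged to the asexual clonal strain CIW4. Control animals received dsRNA of the *C. elegans* gene *unc-22*, so that both groups carried a dsRNA treatment. By the labels there were 8 feedings, with the cut made 7 days after the final one, a schedule on which the other descriptions of the study differ. Each library was made from 5 pooled anterior-facing wounds of post-pharyngeal (tail) fragments, so no value belongs to a single animal or to a single cell type. RNAi lowers a transcript and does not remove the gene. The time was taken from the sample titles, because the separate time entry of *equinox* RNAi replicate 1 reads 24 hpa. Nothing in the labels says that replicates came from separate feeding experiments, so p-values measure the spread between libraries, which may be partly technical. For the main edgeR tests that spread was estimated over all 58 libraries of the series, not from the 9 alone.

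A planarian fragment regrows its missing parts from neoblasts, the dividing cells that are the source of every new cell type in the adult. In the first hours after a cut, epidermis, muscle and neoblasts at the wound switch on wound-induced genes. In the following days neoblasts collect below the wound epidermis and an outgrowth of new tissue, the blastema, appears, while muscle fibres change their expression of position control genes, which tell a fragment which body region it is. The *equinox* gene is expressed in wound epidermis and *bmp4* encodes a secreted signal of the bone morphogenetic protein family. Wounds at 48 hpa therefore hold old tissue, neoblasts and newly forming tissue, and the question addressed by the comparison is which transcripts in them differ when *equinox* is lowered.

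The targeted transcript is dd_20318 (each transcript of the dd_Smed_v6 assembly is written here by its number). The first 150 bases of its coding sequence, taken from the study's supplementary sequence table, are printed because this is the transcript that the dsRNA was directed against. The capitals mark the start codon, and the 50 codons of the stretch translate to the protein given in the same table.
dd_20318: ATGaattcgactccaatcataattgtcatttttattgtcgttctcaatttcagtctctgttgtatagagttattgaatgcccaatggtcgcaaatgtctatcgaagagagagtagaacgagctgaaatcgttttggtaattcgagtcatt
Levels are given in CPM, the counts of a transcript scaled by edgeR to a common TMM-adjusted library total. The level of the targeted transcript was 8.10, 7.34, 7.21 and 5.03 CPM in control replicates 1 to 4. It was 2.03, 1.35, 1.92, 1.15 and 0.753 CPM in *equinox* RNAi replicates 1 to 5. All 5 *equinox* RNAi libraries lay below all 4 control libraries, as their labels require. The log2 fold change was -2.23 ± 0.53 (SE), adjusted p = 0.00210 by edgeR, and the exact two-sided permutation test over the 9 libraries gave p = 0.0159, the smallest that 5 against 4 libraries allow. The transcript is a low one, with 8 to 198 reads per library. In the earlier libraries labelled *equinox* RNAi the knockdown was not seen at every time, with 18.6 ± 17.5 CPM (SD, 4 libraries) at 0 hpa against 6.03 ± 1.21 CPM (SD, 5 libraries) in control.

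Total counts at 48 hpa ranged from 9673740 to 35840567 per library, within a range of 1312330 to 38053378 over the whole series. Over the 20129 transcripts tested, the libraries of a group did not all lie together. Control replicates 1 and 2 lay at -65.3 and -39.8 on the first principal component of log2 CPM, which held 38.2% of the variance, and control replicates 3 and 4 at -5.68 and -4.72. Of the *equinox* RNAi libraries, 4 lay between 14.99 and 45.6, and replicate 5 lay at -13.0, on the control side. The mean distance between libraries (root mean square of log2 CPM) was 0.542 within control, 0.520 within *equinox* RNAi and 0.629 between the groups. *equinox* RNAi replicate 1, whose time entry differs, was at 0.452 from the other *equinox* RNAi libraries of 48 hpa and at 0.540 from those of 24 hpa. Where the call of a named transcript at 48 hpa was lost without control replicate 1 or without *equinox* RNAi replicate 5, this is said beside it.

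At 48 hpa 3528 of the 20129 transcripts tested (17.5%) differed between the treatments by edgeR's quasi-likelihood test at a Benjamini-Hochberg adjusted p of 0.05. Of these, 1624 (8.07% of those tested) were higher and 1904 (9.46%) lower in *equinox* RNAi. Most differences were small. The median size among called transcripts was 0.55 on the log2 scale, 296 rose and 294 fell by a log2 fold change of at least 1, and 37 rose and 41 fell by at least 2. The libraries of the 2 groups did not overlap for 2392 transcripts (11.9%; 5.11% higher and 6.77% lower), of which 2017 were also called. The median log2 fold change of all transcripts tested was 0.00062. TMM scaling brings this centre near 0 by design. Calls in either direction are relative to it, and a shift shared by most transcripts would not be seen. Calls were more frequent among transcripts with more reads: with the transcripts split into 4 equal bins by mean CPM, 3.72% were called higher and 2.38% lower in the lowest bin and 11.6% and 13.6% in the highest. Without control replicate 1 the test called 2126 transcripts, and in a fit of the 48 hpa libraries alone it called 1683. No transcript called both there and in the fit of all libraries changed its direction. In these bulk wounds, fewer cells of a type and less RNA per cell cannot be told apart.

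**Figure D1:**
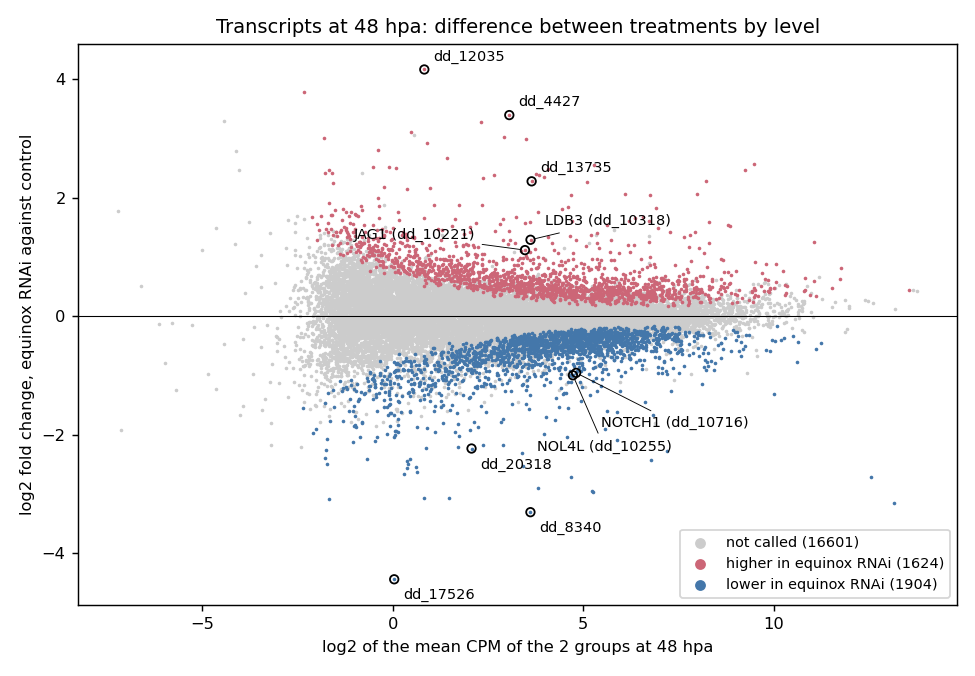
Log2 fold change of *equinox* RNAi against control at 48 hpa (vertical axis) against the log2 of the mean CPM of the 2 groups (horizontal axis), 1 point per transcript tested. Red points (1624) were called higher and blue points (1904) lower in *equinox* RNAi, grey points were not called, and the circled transcripts are described in the text.

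The largest rise of all transcripts tested was that of dd_12035, whose function is not given in the sources used here. It was at 0.0975, 0.0371, 0.212 and 0.339 CPM in control replicates 1 to 4 and at 2.85, 2.52, 4.02, 4.55 and 2.92 CPM in *equinox* RNAi replicates 1 to 5. Control libraries were thus close to empty of it, down to 1 read in a library, and every *equinox* RNAi library held it (log2 fold change 4.16 ± 0.33 (SE), adjusted p = 1.44e-14 by edgeR). Another large rise was that of dd_4427, which was at 2.05, 1.56, 0.919 and 1.19 CPM in control and at 14.7, 11.5, 16.8, 17.7 and 15.2 CPM in *equinox* RNAi. Its groups were far apart, and *equinox* RNAi replicate 2 was the lowest of its group (log2 fold change 3.39 ± 0.31 (SE), adjusted p = 4.72e-12 by edgeR).

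The largest fall of all was that of dd_17526, at 2.39, 1.41, 2.05 and 1.92 CPM in control replicates and 0.136, 0, 0.274, 0.0288 and 0.0941 CPM in *equinox* RNAi replicates. It is a rare transcript with at most 68 reads in a library, and *equinox* RNAi replicate 2 had none (log2 fold change -4.44 ± 0.44 (SE), adjusted p = 2.76e-11 by edgeR). The other by the same rule, dd_8340, had more reads in control, at 25.8, 19.5, 24.9 and 18.6 CPM. In *equinox* RNAi it was at 2.81, 3.16, 1.46, 1.67 and 1.79 CPM. The highest *equinox* RNAi library, at 3.16 CPM, was far below the lowest control library, at 18.6 CPM (log2 fold change -3.30 ± 0.27 (SE), adjusted p = 4.51e-14 by edgeR). All 4 transcripts passed the test in each of 18 alternative fits.

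Some transcripts with very many reads differed as well. Those named in this paragraph and the next were chosen after their values were seen, by the highest CPM among called transcripts that moved by 1 or more on the log2 scale and whose groups did not overlap, and the sources used here give them no name. The transcript dd_122 was at 196, 153, 268 and 209 CPM in control and at 787, 1180.2, 1732, 1776 and 674 CPM in *equinox* RNAi (log2 fold change 2.57 ± 0.24 (SE), adjusted p = 1.04e-11 by edgeR). A like pattern was seen for dd_66, at 149, 131, 245 and 216 CPM in control and 673, 888, 1337, 1508 and 699.9 CPM in *equinox* RNAi (log2 fold change 2.47 ± 0.22 (SE), adjusted p = 4.92e-13 by edgeR). In both, *equinox* RNAi replicates 3 and 4 were the highest and replicates 1 and 5 the lowest. The transcripts dd_254 and dd_238_1_1 rose by log2 fold changes of 2.29 and 1.25.

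Among those that fell, dd_813 was at 228, 253, 265 and 226.3 CPM in control and 58.3, 40.6, 33.5, 55.5 and 62.1 CPM in *equinox* RNAi. Both groups were tight and far apart (log2 fold change -2.28 ± 0.16 (SE), adjusted p = 1.77e-16 by edgeR). The transcripts dd_25 and dd_1582 fell by 1.31 and 1.14 on the log2 scale. The one with the most reads, dd_4_1_1, was at 15182, 5789, 36810.3 and 7362 CPM in control and at 961, 1425, 1219, 1325 and 4234 CPM in *equinox* RNAi. It varied widely within control, where replicate 3 was the highest, and *equinox* RNAi replicate 5 was closest to the control libraries (log2 fold change -3.15 ± 0.90 (SE), adjusted p = 0.0109 by edgeR, not past the threshold in 2 of 18 alternative fits). It took 0.623% to 3.48% of all counts in control libraries and 0.0995% to 0.465% in *equinox* RNAi libraries.

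**Figure D2:**
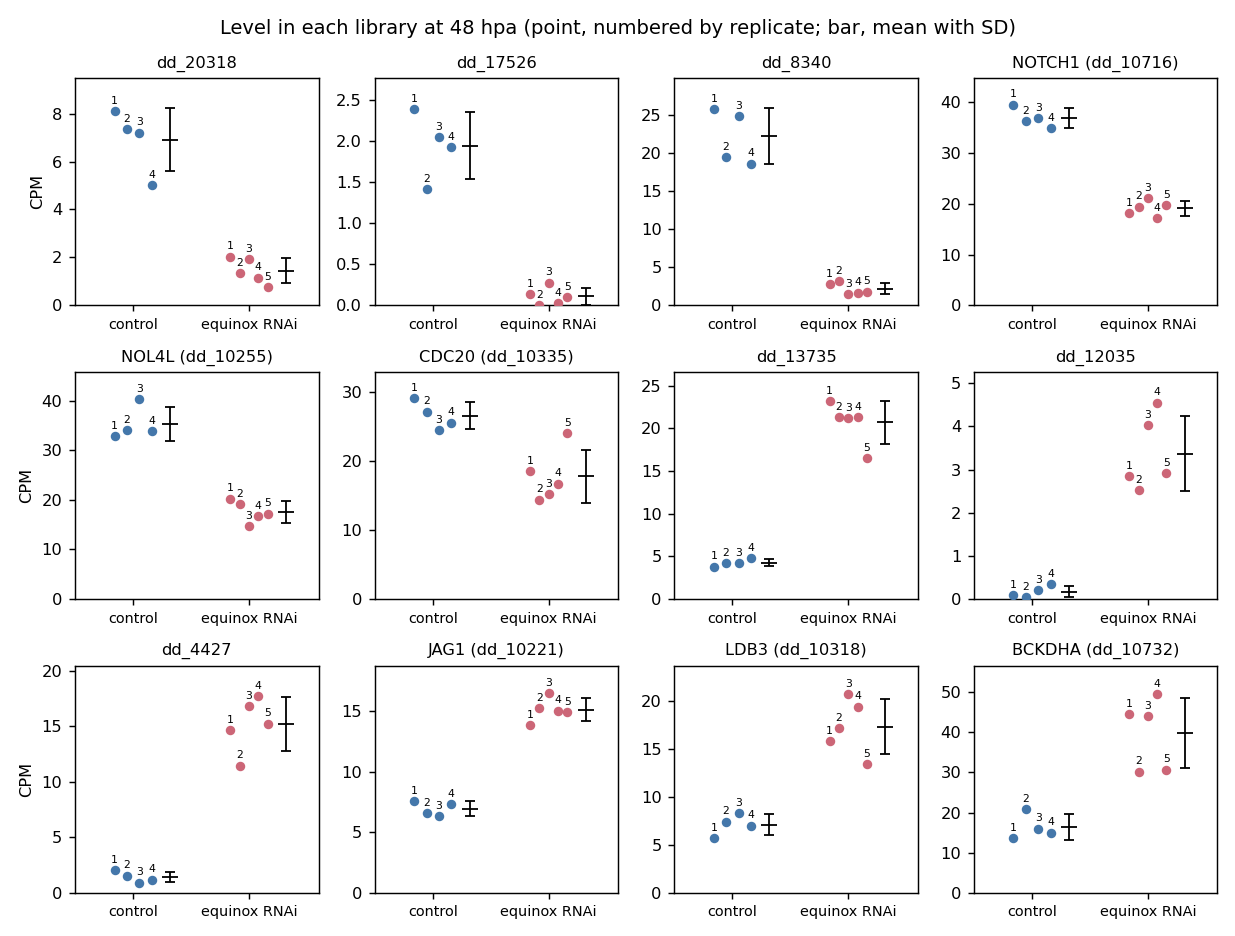
Level in CPM (vertical axes, from 0) of 12 transcripts in each library at 48 hpa, with points numbered by replicate for control (blue, 4 libraries) and *equinox* RNAi (red, 5 libraries) and black bars for the mean and SD. The groups do not overlap in any panel, and for CDC20 *equinox* RNAi replicate 5, at 24.0 CPM, lies next to the lowest control library at 24.5 CPM.

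Both transcripts that the study numbers among its posterior position control genes rose, and these 2 belong to a choice the study made on these samples. The transcript dd_13735 was at 3.80, 4.19, 4.24 and 4.83 CPM in control and at 23.2, 21.3, 21.2, 21.3 and 16.5 CPM in *equinox* RNAi. Control libraries were tight, and even the lowest *equinox* RNAi library, replicate 5, was far above the highest of them (log2 fold change 2.27 ± 0.14 (SE), adjusted p = 4.42e-18 by edgeR). The second, dd_9831, has more reads and rose less, from 53.2 ± 2.29 CPM (SD, 4 libraries) in control to 69.6 ± 5.33 CPM (SD, 5 libraries) in *equinox* RNAi. Its groups did not overlap either, with 54.8 CPM as the highest control level and 61.4 CPM as the lowest of *equinox* RNAi (log2 fold change 0.39 ± 0.060 (SE), adjusted p = 2.14e-06 by edgeR). Both were called in all 18 alternative fits.

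The 8 early wound-induced transcripts that the study numbers did not move together at 48 hpa, a time well after their early peak. Of the 8, 5 fell (62.5%, against 9.46% of all transcripts tested), 1 rose (12.5%, against 8.07%) and 2 did not pass the test. The study reports wound-induced genes on these same samples, so the list may not be independent of them. The one that rose, dd_4392, was at 35.4, 32.1, 24.2 and 28.1 CPM in control and at 51.96, 50.3, 42.8, 72.3 and 61.8 CPM in *equinox* RNAi. *equinox* RNAi replicate 4 was the highest library and replicate 3 the lowest of that group, still above all control libraries (log2 fold change 0.90 ± 0.15 (SE), adjusted p = 8.12e-06 by edgeR). With the 5 libraries of differing time labels placed by their time entry, dd_4392 no longer passed (adjusted p = 0.0625 by edgeR). The largest fall was that of dd_8839, from 12.7, 8.87, 8.98 and 8.39 CPM in control to 4.91, 5.07, 3.20, 6.28 and 7.91 CPM in *equinox* RNAi. Control replicate 1 stood above the other control libraries, and *equinox* RNAi replicate 5 came close to the lowest of them (log2 fold change -0.83 ± 0.19 (SE), adjusted p = 0.00104 by edgeR). The log2 fold changes of the other 4 that fell were -0.69 for dd_5853, -0.57 for dd_9490, -0.34 for dd_7293 and -0.31 for dd_9416, with overlapping groups for the last 2. Each of these 2 missed the threshold in 7 of 18 alternative fits, dd_7293 among others without control replicate 1. The list had 4 falls without that library and 3 in the fit of the 48 hpa libraries alone. The remaining 2 were dd_10923, at 0.38 (adjusted p = 0.228 by edgeR), and dd_10393, at -0.26 (adjusted p = 0.166 by edgeR).

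The *bmp4* transcript, dd_17402, was at 6.34, 5.93, 3.53 and 4.71 CPM in control and at 3.69, 2.86, 2.65, 2.85 and 1.51 CPM in *equinox* RNAi. It fell by 0.89 on the log2 scale (adjusted p = 5.01e-04 by edgeR), although *equinox* RNAi replicate 1, at 3.69 CPM, lay above control replicate 3, at 3.53 CPM. The teneurin transcript dd_5439, which encodes a large transmembrane protein of the cell surface, was at 253 ± 32.96 CPM (SD, 4 libraries) in control and 301 ± 60.04 CPM (SD, 5 libraries) in *equinox* RNAi and did not pass the test (log2 fold change 0.25 ± 0.13 (SE), adjusted p = 0.170 by edgeR).

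Names for further transcripts were available for a stretch of the annotation only. Of 1200 annotated transcripts held here, 730 carry the name of a best human match, and 574 of these were tested. Of the 574, 42 (7.32%) rose and 91 (15.9%) fell, against 8.07% and 9.46% of all transcripts tested, so falls were more frequent in this named stretch and counts of its lists are read against its own shares. Roles given below are those of the human proteins and were not measured in planarians.

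Among signalling genes, members of the Notch pathway moved in opposite directions. Notch receptors are cut after binding a ligand on a neighbouring cell and then act on transcription. The transcript dd_10716, matching the receptor NOTCH1, was at 39.6, 36.4, 36.96 and 34.9 CPM in control and at 18.1, 19.4, 21.1, 17.2 and 19.7 CPM in *equinox* RNAi. Its level was lower by a like amount in every *equinox* RNAi library, with no overlap (log2 fold change -0.95 ± 0.12 (SE), adjusted p = 4.15e-08 by edgeR). The transcript dd_10221, matching the ligand JAG1, was at 7.61, 6.57, 6.36 and 7.31 CPM in control and at 13.9, 15.3, 16.5, 15.1 and 14.97 CPM in *equinox* RNAi. The lowest *equinox* RNAi library, at 13.9 CPM, was well above the highest control library, at 7.61 CPM (log2 fold change 1.11 ± 0.12 (SE), adjusted p = 1.49e-10 by edgeR). Both calls held in all 18 alternative fits.

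Netrin receptors guide growing axons and migrating cells, and both of the matched transcripts fell. The transcript matching UNC5D (dd_10585) was at 71.8, 68.1, 59.2 and 62.2 CPM in control and 46.5, 38.4, 38.5, 43.2 and 52.2 CPM in *equinox* RNAi, with the groups apart (log2 fold change -0.58 ± 0.098 (SE), adjusted p = 1.41e-05 by edgeR). UNC5C (dd_10730) fell by 0.54 on the log2 scale (adjusted p = 3.60e-04 by edgeR). The ERBB4 match (dd_10624), a receptor tyrosine kinase for neuregulins, rose from 43.3, 52.8, 55.1 and 62.4 CPM in control to 86.4, 98.8, 95.1, 71.6 and 66.1 CPM in *equinox* RNAi. Its lowest *equinox* RNAi library, replicate 5 at 66.1 CPM, was close to the highest control library at 62.4 CPM (log2 fold change 0.65 ± 0.14 (SE), adjusted p = 7.43e-04 by edgeR). A further 3 members of the list were named after their values were seen. They were 2 transcripts matching NOG, a secreted antagonist of bone morphogenetic proteins, which fell by 0.51 (dd_10469) and 0.43 (dd_10386), and LRP5 (dd_10112), a Wnt co-receptor, which rose by 0.49 with overlapping groups. Of all 16 tested members of the signalling list, 3 rose (18.8%) and 5 fell (31.2%), against 7.32% and 15.9% of the named stretch. The median log2 fold change of the list was 0.064. Without control replicate 1 the counts were 2 and 5, and LRP5 was not called. LRP5 missed the threshold in 10 of 18 alternative fits and dd_10386 in 7.

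The list of cell cycle, DNA replication and repair genes had 28 members, of which 19 were tested. None rose and 6 fell (31.6%, against 15.9% of the named stretch). The log2 fold change was below 0 for 14 of the 19, and its median over the 19 was -0.22. Their summed level was 414 to 417 CPM in control and 335 to 392 CPM in *equinox* RNAi, with no member at 0 in either group. The transcript matching CDC20 (dd_10335), which activates the ubiquitin ligase that starts anaphase, was at 29.1, 27.2, 24.5 and 25.6 CPM in control and 18.5, 14.4, 15.2, 16.7 and 24.00 CPM in *equinox* RNAi. In 4 of the 5 *equinox* RNAi libraries it was at most 18.5 CPM, and in replicate 5 it was near the control level (log2 fold change -0.59 ± 0.12 (SE), adjusted p = 3.62e-04 by edgeR). RNASEH2A (dd_10404), the catalytic subunit of an enzyme that removes ribonucleotides from DNA, was at 16.7, 14.2, 16.04 and 14.9 CPM in control and 10.5, 9.13, 10.3, 10.4 and 10.7 CPM in *equinox* RNAi. The 2 ranges were tight and apart (log2 fold change -0.60 ± 0.091 (SE), adjusted p = 1.64e-06 by edgeR). TDG (dd_10660), a DNA glycosylase of base excision repair, fell from 68.3 ± 5.87 CPM (SD, 4 libraries) to 43.7 ± 5.64 CPM (SD, 5 libraries), which is -0.64 on the log2 scale (adjusted p = 4.23e-07 by edgeR). HAT1 (dd_10558_1_1), which acetylates newly made histone H4, fell by 1.14 on the log2 scale, but control ranged from 6.49 to 15.8 CPM, the groups overlapped and the call was lost without control replicate 1 (adjusted p = 0.0507 by edgeR). The Aurora kinase match AURKC (dd_10323), named after its value was seen, fell by 0.60 with overlapping groups. Without control replicate 1 the list had 3 calls in place of 6, with that of AURKC among those lost, and the calls of CDC20, RNASEH2A and TDG held in all 18 alternative fits.

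Chromatin regulators fell in 7 of 18 tested members (38.9%, against 15.9% of the named stretch), and none rose. The histone demethylase match KDM4C (dd_10489) was at 16.6, 15.99, 18.4 and 15.9 CPM in control and 10.8, 12.1, 11.97, 11.3 and 13.6 CPM in *equinox* RNAi, with no overlap (log2 fold change -0.49 ± 0.097 (SE), adjusted p = 1.96e-04 by edgeR). Another match of KDM4C in the list, dd_10398, had a higher level and was not called. Its means were 46.8 CPM in control and 45.5 CPM in *equinox* RNAi (log2 fold change -0.037, adjusted p = 0.814 by edgeR). BRD8 (dd_10362_1_1), a bromodomain subunit of a histone acetyltransferase complex, fell by 0.41, the corepressor scaffold SIN3A (dd_10273) by 0.32 and the demethylase PHF8 (dd_10417) by 0.43 on the log2 scale. The groups overlapped for PHF8. Without control replicate 1 there were 5 calls in the list, and in the fit of the 48 hpa libraries alone 1.

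The machinery of transcription and splicing fell in 6 of 19 members (31.6%, against 15.9% of the named stretch), and none rose. SCAF11 (dd_10105), a splicing-associated protein, was at 37.6 ± 1.54 CPM (SD, 4 libraries) in control and 26.5 ± 2.48 CPM (SD, 5 libraries) in *equinox* RNAi, and INTS11 (dd_10577), the endonuclease of the Integrator complex, at 26.4 ± 0.862 CPM (SD, 4 libraries) and 19.7 ± 2.07 CPM (SD, 5 libraries). Neither had overlapping groups, and both calls held in all 18 alternative fits. RPAP2 (dd_10056) and MED25 (dd_10165), which act on and with RNA polymerase II, fell by 0.57 and 0.27 on the log2 scale, and both calls were lost without control replicate 1. Its removal left 4 calls in the list.

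Ribosome assembly factors fell in 4 of 18 members (22.2%) and none rose, a share near the 15.9% of the named stretch. The 4 were NOC4L (dd_10261), MTREX (dd_10069), WDR46 (dd_10180) and UTP23 (dd_10604), with log2 fold changes from -0.47 to -0.27. The groups overlapped for MTREX and UTP23. The calls of NOC4L and UTP23 were lost without control replicate 1, and the fit of the 48 hpa libraries alone called 0 of the 18. WDR46 missed the threshold in 6 and UTP23 in 10 of 18 alternative fits. Of 10 tested ribosomal proteins and translation factors 2 fell (20%), both of them translation factors. EIF2B4 (dd_10438) fell by 0.47 and EIF4E2 (dd_10784) by 0.69 on the log2 scale, the second with overlapping groups.

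Sequence-specific transcription factors included 8 of 16 members that fell (50%) and 2 that rose (12.5%), against 15.9% and 7.32% of the named stretch. The median log2 fold change of the list was -0.30. SOX5 (dd_10201) was at 48.4, 50.04, 51.7 and 49.1 CPM in control and 47.5, 43.8, 37.4, 32.95 and 32.2 CPM in *equinox* RNAi. Control varied little, while *equinox* RNAi ranged from 32.2 CPM to 47.5 CPM, just below it (log2 fold change -0.36 ± 0.092 (SE), adjusted p = 0.00388 by edgeR). OVOL1 (dd_10673) fell by 0.64, TFAP4 (dd_10792) by 0.71 and RREB1 (dd_10103) by 0.45 on the log2 scale, the first 2 with overlapping groups. PAX5 (dd_10219), named after its value was seen, was at 9.58 ± 1.65 CPM (SD, 4 libraries) in control and 13.9 ± 2.11 CPM (SD, 5 libraries) in *equinox* RNAi, which is 0.54 on the log2 scale (adjusted p = 0.0142 by edgeR). The groups of PAX5 overlapped. Of the members of the list 3 fell and none rose without control replicate 1, and the calls of TFAP4, RREB1 and PAX5 were among those lost. The fit of the 48 hpa libraries alone called 1 fall and 1 rise.

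All 8 mitochondrial transcripts had a log2 fold change below 0, from -0.91 to -0.34. Of these, 3 (dd_297, dd_753 and dd_258) were called lower, which is 37.5% against 9.46% of all transcripts tested. The summed share of the 8 in all counts was 0.441% to 0.647% in control and 0.341% to 0.445% in *equinox* RNAi. Among the *equinox* RNAi libraries, replicate 5 had the highest share, within the control range (difference of means -0.185 percentage points, exact two-sided permutation test, p = 0.0317). That p rose above 0.05 when any 1 of 7 of the 9 libraries was left out. Of 9 tested nuclear genes of mitochondrial energy metabolism 2 fell (22.2%, against 15.9% of the named stretch) and none rose. PHB (dd_1038), a chaperone-like protein of the inner membrane, fell by 0.40 and the ATP synthase subunit ATP5PF (dd_1046) by 0.24 on the log2 scale. ATP5PF missed the threshold in 13 of 18 alternative fits, among them those without control replicate 1 and without *equinox* RNAi replicate 5. The part of this lower share in the other falls was not tested.

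Muscle genes rose in 2 of 6 tested members (33.3%, against 7.32% of the named stretch), and none fell. LDB3 (dd_10318), a protein of the sarcomere's Z-disc in human muscle, was at 5.71, 7.42, 8.34 and 7.00 CPM in control and at 15.9, 17.2, 20.7, 19.4 and 13.5 CPM in *equinox* RNAi. It had the largest rise of the named stretch, and the lowest *equinox* RNAi library, replicate 5, was above all control libraries (log2 fold change 1.29 ± 0.15 (SE), adjusted p = 3.00e-09 by edgeR). ACTN2 (dd_10174), the alpha-actinin that crosslinks actin at the Z-disc, was at 7.12, 8.01, 4.66 and 5.48 CPM in control and 9.79, 8.98, 10.7, 9.85 and 11.5 CPM in *equinox* RNAi, with no overlap (log2 fold change 0.67 ± 0.14 (SE), adjusted p = 4.91e-04 by edgeR). Both calls were kept without control replicate 1 and without *equinox* RNAi replicate 5. The summed level of the 6 overlapped between the groups, at 391 to 535 CPM in control and 359 to 512 CPM in *equinox* RNAi, and none of the 6 was at 0.

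Other lists of differentiated cells are set against the named stretch, where 7.32% rose and 15.9% fell. Cilia and basal bodies had 15% higher and none lower, and the neural list had 14.3% higher and 10.7% lower. Of 20 tested genes of cilia and basal bodies 3 rose, namely the tubulin glycylase TTLL3 (dd_10244) by 0.28, the transport protein IFT172 (dd_10638) by 0.29 and the dynein heavy chain DNAH10 (dd_10425) by 0.37 on the log2 scale, and none of these calls was kept without control replicate 1. That of DNAH10 was also lost without *equinox* RNAi replicate 5. The groups overlapped for IFT172 and DNAH10. The summed level of the 20 was 338 to 412 CPM in control and 396 to 438 CPM in *equinox* RNAi. Of 28 tested neural receptors, channels and synaptic proteins 4 rose and 3 fell, and their summed level was 825 to 864 CPM in control and 859 to 924 CPM in *equinox* RNAi. The cation channel TRPM1 (dd_10029) rose from 34.03 ± 6.67 CPM (SD, 4 libraries) to 50.3 ± 7.95 CPM (SD, 5 libraries), which is 0.56 on the log2 scale, and the galanin receptor GALR2 (dd_10325) rose by 0.54. The synaptic adhesion protein LRRC4B (dd_10042) fell by 0.85 and the neuropeptide Y receptor NPY2R (dd_10020) by 0.42 on the log2 scale. The groups overlapped for TRPM1 and NPY2R. Both falls missed the threshold without control replicate 1 (adjusted p = 0.0515 and 0.0504 by edgeR), and so did the rise of GALR2. Without that library the neural list held 2 rises and no fall, and in the fit of the 48 hpa libraries alone 2 rises and 1 fall.

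Of 14 tested genes of the extracellular matrix and of secreted modulators 4 rose (28.6%) and 2 fell (14.3%). The shares of the named stretch were 7.32% and 15.9%. SPARCL1 (dd_1021) rose by 0.52 and the microfibril protein FBN2 (dd_10142) by 0.35, both with overlapping groups. COLGALT1 (dd_10276), an enzyme that adds sugars to collagen, fell by 0.64 and the basement membrane proteoglycan HSPG2 (dd_1054) by 0.43 on the log2 scale. The groups overlapped for both. HSPG2 was at 1506, 1597, 2071 and 2069 CPM in control and 1384, 1753, 1071, 1251 and 1256 CPM in *equinox* RNAi, and *equinox* RNAi replicate 2 lay above 2 control libraries. Its call was lost in 9 of 18 alternative fits, among them the one without *equinox* RNAi replicate 5. Without control replicate 1 none of the 4 rises was called. Of 8 lysosomal and digestive hydrolases GAA (dd_1062) rose by 0.32 (12.5% of the list) and none fell. Of 17 membrane transporters SLC47A2 (dd_10595) rose by 0.52 and SLC16A4 (dd_10629) by 0.34 on the log2 scale (11.8% of the list). The first was not past the threshold without control replicate 2. Of 11 tested TRAF adaptors and cell death genes 1 fell (9.09%), TRAF4 (dd_10539), by 0.61 (adjusted p = 0.0411 by edgeR). The calls of GAA, SLC16A4 and TRAF4 were lost without control replicate 1, and that of SLC16A4 also without *equinox* RNAi replicate 5. These 3 had overlapping groups and missed the threshold in 9, 13 and 12 of 18 alternative fits.

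**Figure D3:**
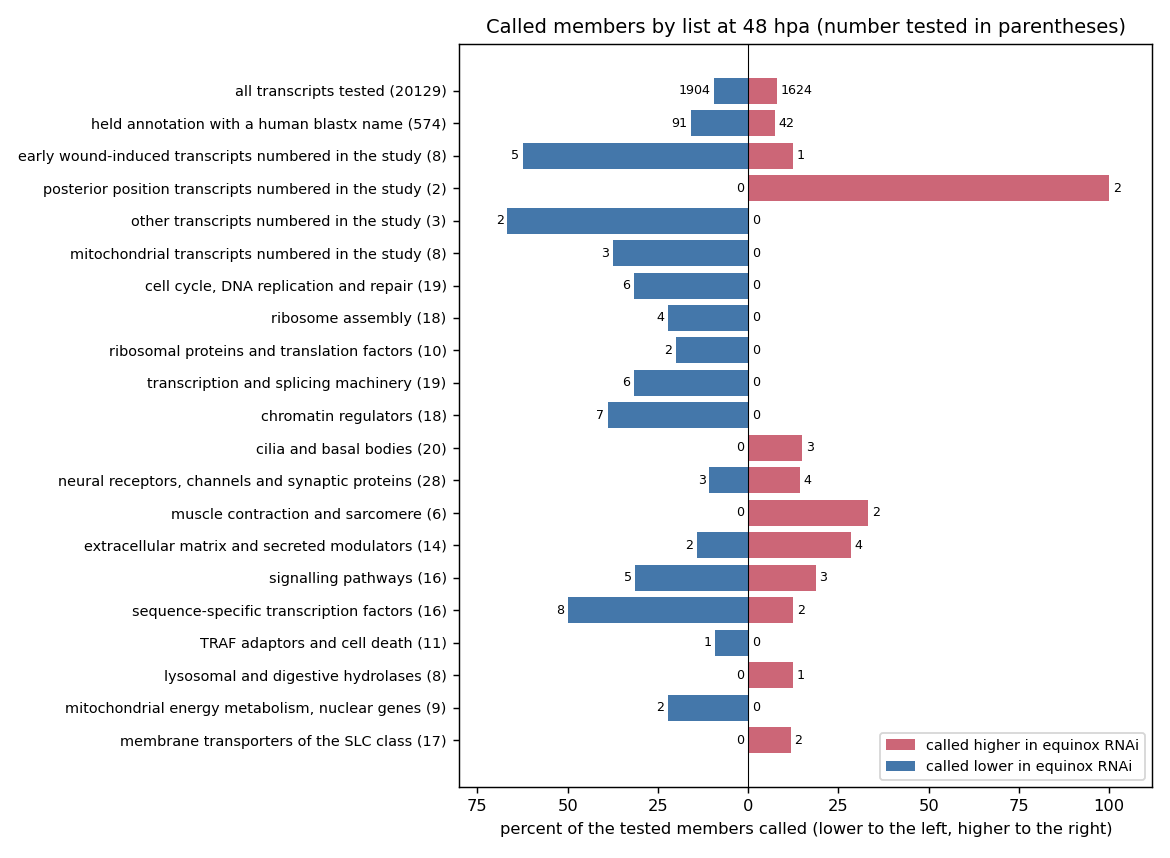
Percent of the tested members of each list that were called lower (blue, to the left) or higher (red, to the right) in *equinox* RNAi at 48 hpa, with the number called at the end of each bar and the number tested in parentheses. The top 2 rows give the shares over all 20129 transcripts (9.46% lower, 8.07% higher) and over the 574 with a human name (15.9% lower, 7.32% higher).

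Other named transcripts with large rises came from several processes. BCKDHA (dd_10732), a subunit of the enzyme that breaks down branched-chain keto acids, was at 13.6, 20.9, 15.97 and 15.02 CPM in control and 44.4, 30.2, 44.1, 49.5 and 30.7 CPM in *equinox* RNAi. Replicates 2 and 5 were the lowest of *equinox* RNAi and still above all control libraries (log2 fold change 1.28 ± 0.17 (SE), adjusted p = 7.91e-08 by edgeR). The ubiquitin ligase subunit FBXL7 (dd_10647) was at 11.7, 11.3, 11.9 and 11.1 CPM in control and 22.3, 16.1, 17.3, 19.9 and 17.2 CPM in *equinox* RNAi. Control varied little, and the groups were apart (log2 fold change 0.69 ± 0.12 (SE), adjusted p = 1.10e-05 by edgeR). SYNE1 (dd_10282), which links the nucleus to the cytoskeleton, rose by 0.57, the O-glycosylation enzyme GALNT1 (dd_10587) by 0.55, the synaptic scaffold ANKS1B (dd_10535) by 0.71 and the adaptor NOS1AP (dd_1082) by 0.56 on the log2 scale. The call of ANKS1B was lost in 9 of 18 alternative fits, among them those without control replicate 1 and without *equinox* RNAi replicate 5, and that of NOS1AP in 4, among them the one without control replicate 2.

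Among the large falls, NOL4L (dd_10255) was the deepest of the named stretch with groups that did not overlap. It was at 32.9, 34.1, 40.3 and 33.8 CPM in control and 20.3, 19.2, 14.6, 16.7 and 17.2 CPM in *equinox* RNAi. Control replicate 3 was the highest library, and the highest *equinox* RNAi library was at 20.3 CPM (log2 fold change -0.996 ± 0.10 (SE), adjusted p = 9.08e-11 by edgeR). The small heat shock chaperone HSPB1 (dd_1039) was at 157, 198, 179 and 167 CPM in control and 97.3, 84.9, 102, 134 and 92.3 CPM in *equinox* RNAi, where replicate 4 was the highest of its group (log2 fold change -0.78 ± 0.16 (SE), adjusted p = 3.73e-04 by edgeR). HSPB1 was already lower in the libraries labelled *equinox* RNAi at 0 hpa (log2 fold change -0.81, adjusted p = 0.00245 by edgeR). Its difference between 48 and 0 hpa was 0.035 (adjusted p = 0.982 by edgeR). CISD3 (dd_10541), an iron-sulfur protein of mitochondria, was at 5.33 ± 0.322 CPM (SD, 4 libraries) and 2.91 ± 0.472 CPM (SD, 5 libraries), which is -0.88 on the log2 scale. ATPSCKMT (dd_10644) and CAMKMT (dd_10028), lysine methyltransferases of ATP synthase and of calmodulin, fell by 0.93 and 0.77. The NEDD8 protease SENP8 (dd_10711) fell by 0.89, the Elongator subunit ELP5 (dd_10439) by 0.79 and C22orf39 (dd_10060) by 0.69 on the log2 scale. Without control replicate 1 the calls of CAMKMT, SENP8 and ELP5 were lost (adjusted p = 0.113, 0.268 and 0.374 by edgeR).

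ANK1, an ankyrin that ties membrane proteins to the spectrin skeleton, was the best human match of 2 named transcripts that moved apart. The first, dd_10291, was at 31.8, 30.5, 24.03 and 24.3 CPM in control and 14.4, 14.1, 13.8, 16.2 and 21.7 CPM in *equinox* RNAi and fell by 0.80 on the log2 scale (adjusted p = 2.24e-05 by edgeR). The second, dd_10599, was at 4.97, 8.42, 7.63 and 10.02 CPM in control and 10.8, 13.4, 11.4, 10.6 and 10.1 CPM in *equinox* RNAi and rose by 0.53 (adjusted p = 0.0240 by edgeR), a call that was lost without control replicate 1 (adjusted p = 0.180 by edgeR). Whether the 2 share reads was not tested.

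To ask when these differences arose, the effect of *equinox* RNAi at 48 hpa was compared with that at 24 hpa, which rests on 10 other libraries. At 24 hpa 251 transcripts (1.25%) were called. The test of the difference itself, the interaction of treatment and time, called 278 transcripts (1.38%), 137 (0.681%) with a more positive and 141 (0.7%) with a more negative effect at 48 hpa, and 271 of them were also called at 48 hpa. This count moved with single libraries, to 98 without control replicate 1 and to 165, 122 and 518 without *equinox* RNAi replicates 1, 3 and 5. Among the 574 transcripts with a human name it called 9 (1.57%). It called 16 of the transcripts named here. The 3 most stable were dd_13735, with an effect of 0.097 at 24 hpa and 2.27 at 48 hpa (difference 2.18 ± 0.18, SE, adjusted p = 3.05e-12 by edgeR), dd_4427, with 1.22 and 3.39 (difference 2.18 ± 0.40, SE, adjusted p = 8.78e-04 by edgeR), and NOL4L, with -0.25 and -0.996 (difference -0.74 ± 0.14, SE, adjusted p = 0.00166 by edgeR). These 3 passed in all 17 alternative fits of this difference. None of the 17 left out a single library of 24 hpa, so the weight of each of those was not tested.

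BCKDHA, FBXL7 and dd_4392 had effects of 0.19, -0.059 and -0.10 at 24 hpa, none called, and differences of 1.09, 0.75 and 1.004 between the times. Each of the 3 was lost only with the libraries of differing labels placed by their time entry. The transcripts dd_122, dd_66 and dd_254 were already higher at 24 hpa, by 1.13, 1.19 and 1.27 (called), and the effect was larger at 48 hpa by 1.44, 1.27 and 1.02. These 3 differences missed the threshold in the fit of the 24 and 48 hpa libraries alone (adjusted p from 0.0764 to 0.0790 by edgeR) and in no other. The same 3 transcripts were also higher in the libraries labelled *equinox* RNAi at 0 hpa, by 1.08, 0.98 and 0.80 (adjusted p from 0.00242 to 0.00326 by edgeR). The remaining 7, dd_12035, dd_8340, LDB3, JAG1, CISD3, RNASEH2A and CDC20, passed in 6 to 14 of the 17 alternative fits, and without control replicate 1 none of the 7 passed.

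Other named transcripts already differed at 24 hpa, and the test found no difference between the times. The effect on dd_20318 was -2.16 at 24 hpa (difference -0.067, adjusted p = 0.981 by edgeR). UNC5D was lower by 0.58 and UNC5C by 0.53 at 24 hpa, with differences of 0.0050 and -0.0090 between the times (adjusted p = 0.993 and 0.988 by edgeR). In the libraries labelled *equinox* RNAi at 0 hpa UNC5D was already lower, at -0.48 (adjusted p = 0.00390 by edgeR). UNC5C was not called there, at 0.089 (adjusted p = 0.744 by edgeR). NOTCH1 was lower by 0.62 at 24 hpa, and its difference of -0.34 did not pass (adjusted p = 0.316 by edgeR). Also dd_813, at -1.97, and dd_25, at -1.82, were called lower at 24 hpa. Both were already lower in the libraries labelled *equinox* RNAi at 0 hpa, at -2.31 and -1.50 (adjusted p = 2.56e-15 and 6.05e-05 by edgeR). Their differences between 48 and 0 hpa, 0.030 and 0.19, did not pass (adjusted p = 0.985 and 0.861 by edgeR). A p that misses the threshold does not show that the effect at 2 times was equal. Over the 20129 transcripts tested, the interaction of 48 and 0 hpa called 1022, and 809 to 1300 in the alternative fits. At 0 hpa the targeted transcript was not lower in the libraries labelled *equinox* RNAi (log2 fold change 1.63, adjusted p = 0.0797 by edgeR).

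**Figure D4:**
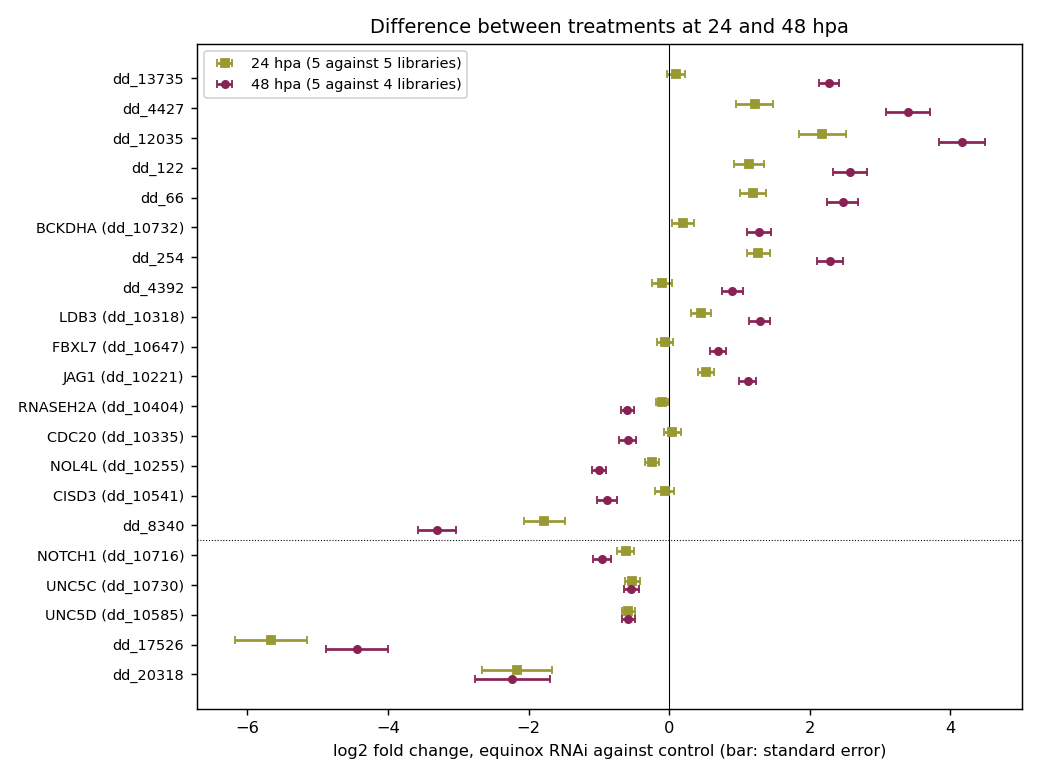
Log2 fold change of *equinox* RNAi against control with its standard error (horizontal axis) at 24 hpa (squares, 5 against 5 libraries) and at 48 hpa (circles, 5 against 4 libraries). Above the dotted line stand 16 named transcripts whose effect differed between the times, among them dd_13735 with 0.097 and 2.27, and below it 5 that were called at both times with no called difference.

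The levels over the whole time course show how the groups came apart. Means are in CPM with the SD over 5 libraries, or over 4 where a group has only 4 (the last time in control and the first with *equinox* RNAi). In control wounds dd_13735 was at 15.8 ± 1.87 at 24 hpa and 4.27 ± 0.422 by 48 hpa. With *equinox* RNAi the same 2 times gave 16.9 ± 1.34 and 20.7 ± 2.50. The control level of dd_12035 was 4.10 ± 0.910 at 0 hpa, 0.252 ± 0.107 at 24 hpa and 0.171 ± 0.133 at 48 hpa. With *equinox* RNAi it was 1.09 ± 0.447 at 24 hpa and 3.37 ± 0.870 at 48 hpa, and the libraries labelled *equinox* RNAi at 0 hpa were at 4.60 ± 0.760. JAG1 (dd_10221) in control moved from 16.5 ± 0.946 at 0 hpa to 7.16 ± 0.712 at 24 hpa and 6.96 ± 0.594 at 48 hpa, and with *equinox* RNAi it was at 10.3 ± 0.607 and 15.1 ± 0.947 at the later 2 times.

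For dd_8340, NOTCH1 and NOL4L the mean control level was highest at 48 hpa. The control means of dd_8340 were 0.712 ± 0.394 at 0 hpa, 3.51 ± 2.46 at 24 hpa and 22.2 ± 3.69 at 48 hpa, against 2.18 ± 0.755 with *equinox* RNAi at the last time. NOTCH1 (dd_10716) was at 13.3 ± 1.27 in control at 0 hpa and at 36.9 ± 1.94 at 48 hpa, and its highest mean with *equinox* RNAi was 25.4 ± 0.787, at 16 hpa. NOL4L (dd_10255) had means between 12.9 and 17.6 CPM in the libraries labelled *equinox* RNAi at all 6 times. The rare transcript dd_17526 differed from these, since its mean in libraries labelled *equinox* RNAi was at or below 0.182 CPM at every time from 0 hpa on, against 1.65 ± 0.551 in control at 0 hpa.

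**Figure D5:**
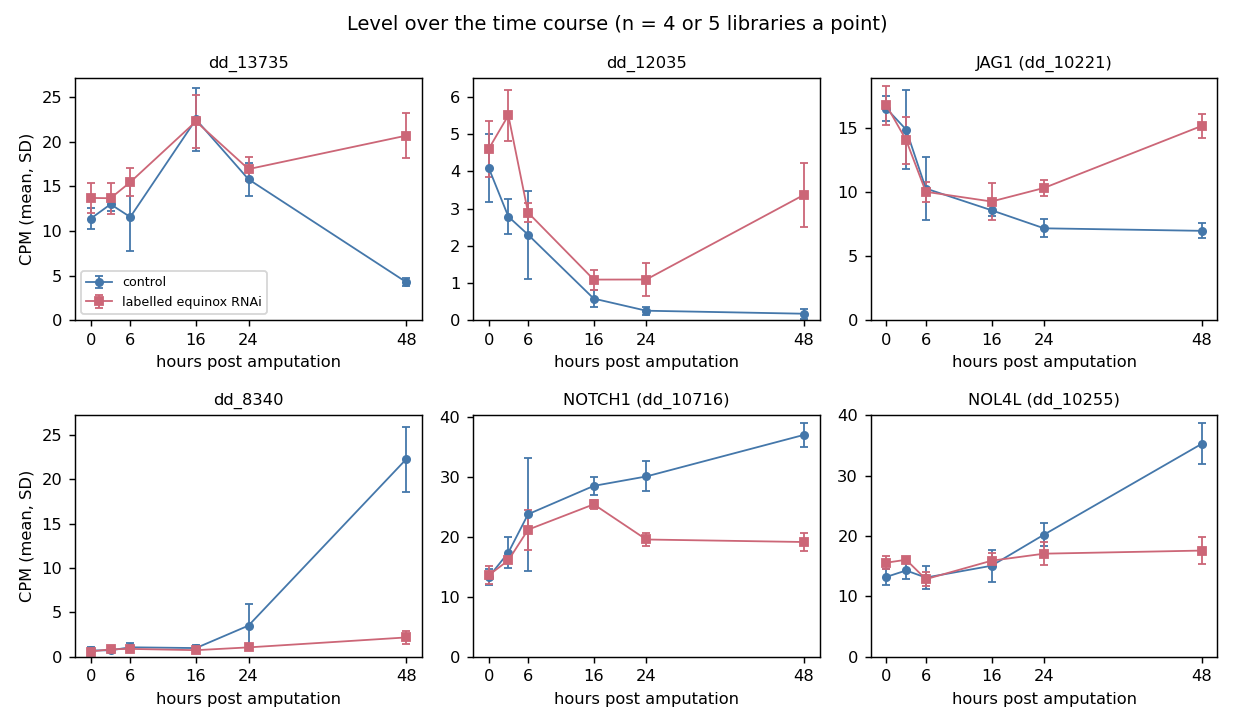
Mean level in CPM with SD (vertical axes, from 0) against hours post amputation for 6 transcripts in control (blue circles) and in libraries labelled *equinox* RNAi (red squares), with 4 or 5 libraries a point. At 48 hpa *equinox* RNAi lies above control in the upper row, as for dd_13735 with 20.7 against 4.27 CPM, and below it in the lower row.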

How the data were processed

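RNA sequencing of pooled wounds gave the values. The authors deposited raw counts per transcript of the dd_Smed_v6 assembly for 58 libraries; the submitters' processing notes name cutadapt 1.8, Bowtie 1.2, SAMtools 1.6 and DESeq.

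Groups followed the sample titles. The counts of all 12 groups were fitted in 1 model with edgeR 4.0.16 in R 4.3.3 (TMM scaling, filterByExpr with a minimum count of 10, robust quasi-likelihood F test, Benjamini-Hochberg adjusted p of 0.05), which tested 20129 of 28742 transcripts and kept 99.87% of the counts in the 48 hpa library that lost most. The difference between 48 and 24 hpa was the interaction in that model. Single values were compared by exact permutation with scipy 1.17.1. No 2 libraries of the same group at 48 hpa agreed within sampling noise. Reads shared by near-identical transcripts cannot be told apart.

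Alternatives were RLE size factors, DESeq2 1.42.0, no filter, fits of fewer time points, a replicate block and other handling of the 5 libraries with differing time labels. Each of the 9 libraries of 48 hpa was also left out in turn, and no single library of another time was. The code was tested on simulated data.

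Human names came from the 1200 transcripts of the study's first annotation table held here; the annotation in another table disagreed for all 875 transcripts annotated in both and was not used, since version 4 names of the first equal the transcript number in 1099 of 1174 cases. Transcripts named were those the study numbers, the 2 largest rises and falls, the 12 largest named rises and falls (called, no overlap, a mean of at least 10 counts) and up to 4 called members of each list. Members and lists were chosen with earlier results of these data known.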

Additional observations from a re-analysis of the deposited data

Results flagged for a closer look

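In 192 groups of 4 or 5 libraries, 1 per measure and treatment, 12 held a library that stood apart from the others by Dixon's criterion. Chance alone meets it in about 5% of groups, and 12 of 192 is close to that share. The criterion therefore does not by itself mark any library as unusual. Control replicate 1 was the one in 4 of the 12. It was the highest control library for dd_8839 (12.7 CPM, others 8.39 to 8.98) and for ATPSCKMT, dd_10644 (4.63 CPM, others 3.04 to 3.13), and the lowest for TTLL3, dd_10244 (30.0 CPM, others 35.1 to 35.9), and ATP5PF, dd_1046 (90.0 CPM, others 96.4 to 97.3). Control replicate 3 was the highest for NOL4L, dd_10255 (40.3 CPM, others 32.9 to 34.1).

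*equinox* RNAi replicate 5 stood apart in 4 measures, 2 of them the level and the share of the same transcript. It had the highest level of dd_4_1_1 (4234 CPM, others 961 to 1425), the highest share of counts on dd_4_1_1 (0.465%, others 0.0995% to 0.141%) and on the mitochondrial transcripts (0.445%, others 0.341% to 0.371%), and the lowest share on the 10 transcripts with the most reads (7.68%, others 8.85% to 9.14%). *equinox* RNAi replicate 2 was the highest of its group for dd_9416 (39.2 CPM, others 30.9 to 32.9) and MTREX, dd_10069 (46.3 CPM, others 36.3 to 39.2), and the lowest for RNASEH2A, dd_10404 (9.13 CPM, others 10.3 to 10.7).

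The effect of *equinox* RNAi differed between 48 and 24 hpa for 16 named transcripts by the interaction test of edgeR. The effect was more positive at 48 hpa for dd_13735 by 2.18, dd_4427 by 2.18, dd_12035 by 1.98, dd_122 by 1.44, dd_66 by 1.27, dd_254 by 1.02 and dd_4392 by 1.004 on the log2 scale. The same was found for BCKDHA (dd_10732) by 1.09, LDB3 (dd_10318) by 0.83, FBXL7 (dd_10647) by 0.75 and JAG1 (dd_10221) by 0.59. It was more negative at 48 hpa for dd_8340, with a difference of -1.53, CISD3 (dd_10541) with -0.82, NOL4L (dd_10255) with -0.74, CDC20 (dd_10335) with -0.64 and RNASEH2A (dd_10404) with -0.49. The largest adjusted p of the 16 was 0.0446, that of JAG1, by edgeR.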

How the results depend on the processing

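No result reversed its direction in any alternative, and dd_20318 kept its call in all 18. The number of transcripts called at 48 hpa was 3528 (1624 higher, 1904 lower), 1683 (730 and 953) in the fit of the 48 hpa libraries alone, and 2226 (1020 and 1206) without both control replicate 1 and *equinox* RNAi replicate 5, an alternative chosen after seeing the data. With each 48 hpa library left out in turn it ranged from 2126 (without control replicate 1; 950 and 1176) to 3981 (without *equinox* RNAi replicate 5), with 950 to 1788 higher and 1176 to 2193 lower. DESeq2 called 3867. The labels do not say whether replicate numbers pair the libraries. Deviations of same-numbered libraries correlated from -0.360 to 0.278 and those of unlike-numbered ones from -0.554 to 0.586. So few correlations can neither show nor exclude a pairing. A replicate block gave 3543 calls over all groups and 1506 (699 and 807) in the fit of the 48 hpa libraries alone. The interaction of 48 and 24 hpa called 278 transcripts, 168 without a filter, 82 in the fit of both times alone, 104 with libraries placed by their time entry, 617 with DESeq2, 149 without both libraries and 98 to 518 with each 48 hpa library left out. The difference in mitochondrial share, -0.185 percentage points, ranged from -0.226 to -0.157 with each library left out, with exact permutation p from 0.0286 to 0.0714, and was also found per TMM-scaled total, a measure added after seeing the data (-0.174, p = 0.0159). Of 88 named and called transcripts, 37 passed in all 18 alternatives. The number not past the threshold was 28 without control replicate 1, 33 in the fit of the 48 hpa libraries alone, 41 in that fit with a replicate block (where 0 of 8 falls of the transcription factor list and 0 of 4 rises of the neural list were called) and 0 with DESeq2 or RLE size factors. Transcripts with few reads, such as dd_17526, dd_12035 and dd_20318, limit the precision of their fold changes. The cause of these changes was not tested.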
